A study of Drosophila melanogaster with 4 samples.

Results

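The genes described here are the UDP-glycosyltransferases of Drosophila melanogaster, the 35 loci of the deposited gene table whose symbol begins with Ugt followed by a digit. Members were found by matching the RefSeq transcript accessions of each locus to NCBI Release 6 symbols, without use of any level, and every one of the 35 annotated Ugt genes had a row of its own among the 16198 loci. Polyadenylated RNA of whole larvae of the third instar, at 100 h after egg laying, was sequenced from 2 libraries labelled wildtype and 2 labelled kr-h1 mutant. The protocol gives the mutant larvae as homozygous for kr-h1[7], an allele of the zinc-finger transcription factor gene Kr-h1, which juvenile hormone induces. The strain behind the wildtype label, the sex of the larvae and the number of larvae per library are not stated in the labels.

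UDP-glycosyltransferases are enzymes of the endoplasmic reticulum membrane that transfer a sugar from a UDP-sugar, in insects mostly glucose, onto small lipophilic molecules. The product is more soluble and is more easily excreted, so the family is known for detoxification of plant compounds and insecticides, and also for conjugation of pigments, hormones and odorants. In flies they are found in fat body, gut and Malpighian tubules and, for some members, in the antenna. Symbols give the family as a number and the subfamily as a letter, so that Ugt37A2 and Ugt37A3 are close relatives and Ugt37B1 a more distant one.

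The authors combined the libraries of each group into 1 FPKM value per gene, so the values carry no replicate error of their own. FPKM counts fragments relative to transcript length and to the number sequenced, so levels can be set side by side between genes. A gene is called higher or lower where the Cuffdiff q-value of the authors' deposited table, a p-value adjusted over all tested genes, is at most 0.05. Kr-h1 itself went against the direction that loss of its transcript would give, at 2.98 FPKM under the wildtype label and 9.79 FPKM under the mutant label, 3.28-fold higher (q = 0.000889, the authors' deposited table). A mutant allele can still be transcribed, so the level alone does not settle whether the labels are right. If the labels were exchanged, every rise, fall, higher and lower given here would turn round, and the groups are therefore called by their labels throughout. The depth of the libraries is unknown, and the labels do not say whether libraries of a group came from separate collections, so p-values speak at most for the spread of these libraries, which may be technical.

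Of the 35 Ugt genes, 17 were tested by the authors and 18 were not, 1 was called higher in mutant-labelled larvae (Ugt37B1) and 1 was called lower (Ugt37A3). Both belong to family 37, and they moved in opposite directions. The 2 called genes are 11.8% of the 17 tested members, against 13.0% of all 7058 tested genes in the same comparison, so the share of called Ugt genes was close to the background. Among tested genes within the members' own range of mean level (3.20 to 52.6 FPKM), 7.78% were called. The deposited q-value left the same counts at a threshold of 0.01, where 8.08% of all tested genes passed. With an absolute log2 ratio of 1 or more asked for as well, 1 Ugt gene passed, beside 2.45% of all tested genes, and at a threshold of 0.1 there were 5, beside 18.1%. In one direction at a time, 4.32% of all tested genes were called higher and 8.73% lower, against 5.88% of the tested Ugt genes in each direction. The median log2 ratio of the 17 tested members was 0.01, where the ratio is log2((mutant-labelled FPKM + 1)/(wildtype-labelled FPKM + 1)) and understates changes of low genes. The same median over all tested genes was -0.03. The members' median absolute log2 ratio was 0.38, beside 0.30 for all tested genes.

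Summed over the 35 genes, the level was 338 FPKM under the wildtype label and 335 FPKM under the mutant label, a ratio of 0.989. These sums were 0.0597% and 0.0616% of all FPKM in the table. The near equality covered differences that went both ways. The 16 genes whose value was higher in mutant-labelled larvae differed by 54.3 FPKM together, and the 15 whose value was lower by -57.9 FPKM together, all but 1 gene on each side without a call. No replicate error is available for these sums, and they were not tested.

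**Figure D1:**
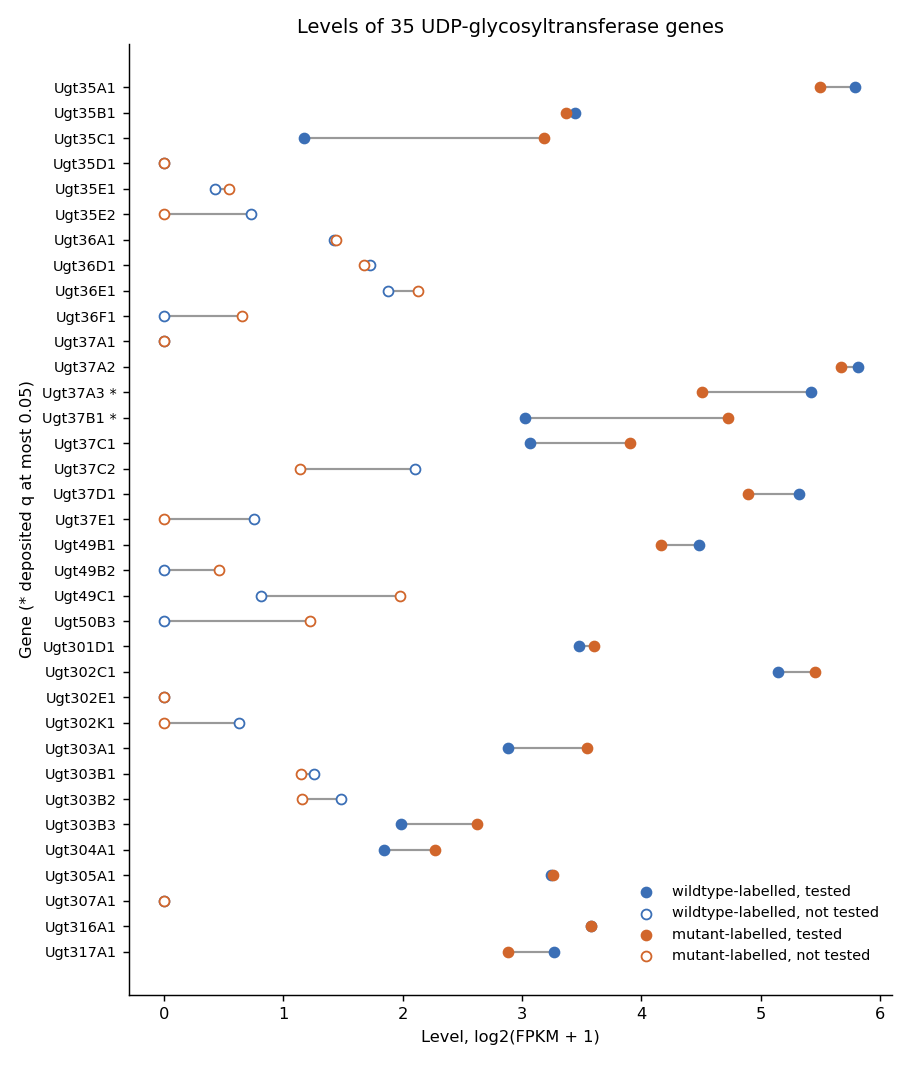
Level of each of the 35 Ugt genes as log2(FPKM + 1), ordered by family, with the wildtype-labelled value in blue and the mutant-labelled value in orange; each point is the authors' single value per group, open points are genes the authors did not test, and an asterisk marks a q-value of at most 0.05. The 2 called genes, Ugt37A3 and Ugt37B1, lie apart in opposite directions, and 4 genes sit at 0 in both groups.

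Family 37 held the largest part of the Ugt transcripts. Its 8 genes summed to 154 FPKM under the wildtype label and 141 FPKM under the mutant label, which was 45.7% and 42.2% of the Ugt total. Ugt37B1 stood at 7.15 FPKM under the wildtype label and 25.4 FPKM under the mutant label. It rose 3.56-fold (log2 ratio 1.70; q = 0.000889, the authors' deposited table). That is the smallest q-value the table holds, and Ugt37A3, Muc26B and other genes share it. By level Ugt37B1 was 13th of the 35 genes under the wildtype label and 5th under the mutant label. Ugt37B1 (FBgn0026755) has 2 exons and lies on the plus strand of arm 2L, at 6225048 to 6226842 in the table's coordinates, and no other row of the table has those coordinates.

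The mutated gene lies on the same arm, and Ugt37B1 starts 129 kb beyond the end of Kr-h1 (6082603 to 6096498). Mutant-labelled larvae are homozygous for the chromosome region that carries the allele, so in this design an effect of Kr-h1 and an effect of linked sequence on Ugt37B1 cannot be told apart. For the other Ugt genes, an effect of Kr-h1 and one of strain background cannot be told apart, because the wildtype strain is not stated. Of the 14 rows between both genes, 8 were tested, and 0 of these were called higher and 1 lower, namely the mucin gene Muc26B (37.5 to 8.61 FPKM; q = 0.000889, the authors' deposited table). That is 12.5% of the tested rows in between, against 12.6% of 1254 tested rows on arm 2L. The nearest coding neighbour of Ugt37B1, smal, had 0.600 and 1.32 FPKM and was not tested.

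Ugt37A3 went the other way. Its level was 41.9 FPKM under the wildtype label and 21.8 FPKM under the mutant label, so that it fell 1.92-fold (log2 ratio -0.91; q = 0.000889, the authors' deposited table). From 3rd of the 35 genes by level it went to 6th. Its neighbour Ugt37A2, from the same subfamily, was the most abundant Ugt gene of both groups, at 55.2 FPKM and 49.9 FPKM. That difference was 1.11-fold and was not called (q = 0.512, the authors' deposited table). Ugt37A2 lies on the plus strand of arm 3R at 12739642 to 12741417, and Ugt37A3 (FBgn0038083) on the minus strand at 12741958 to 12743680, so 540 nucleotides separate their facing ends. The level of Ugt37A2 was 1.32 times that of Ugt37A3 under the wildtype label and 2.29 times under the mutant label. How alike the transcripts are was not computed, and fragments that fit both genes could be divided between them. Whether the changes of the pair differ was not tested, because the table has no value per library.

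The remaining genes of family 37 were not called. Ugt37C1, a single-exon gene on arm 2R, had 7.37 FPKM under the wildtype label and 14.0 FPKM under the mutant label, a 1.90-fold difference (q = 0.0615, the authors' deposited table). Ugt37D1, on arm 2L, had 38.9 and 28.8 FPKM, which is 1.35-fold lower in value (q = 0.0648, the authors' deposited table). Its tandem neighbours Ugt37C2 (3.31 and 1.21 FPKM) and Ugt37E1 (0.686 FPKM and a listed 0) were not tested. These 3 genes follow each other on the plus strand of arm 2L with gaps of 585 and 751 nucleotides, and all 3 had the lower value under the mutant label. Their sum was 42.9 FPKM and 29.97 FPKM. Ugt37A1, which is on arm 2L and far from the other genes of its subfamily, was listed at 0 in both groups. Within the family, 2 genes had the higher value in mutant-labelled larvae, 5 the lower one and 1 neither.

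**Figure D2:**
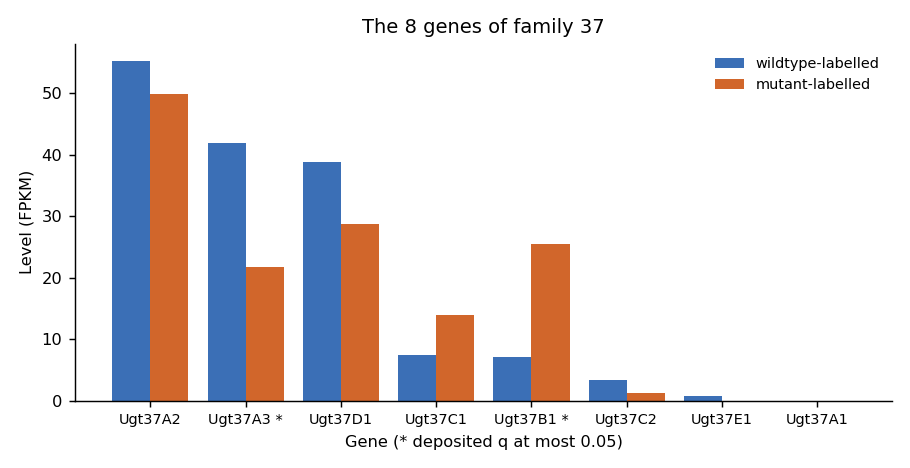
Level in FPKM of the 8 genes of family 37, ordered by their wildtype-labelled level, with blue bars for wildtype-labelled and orange bars for mutant-labelled larvae (the authors' single value per group, without error bars). Ugt37B1 passes from 7.15 to 25.4 FPKM and Ugt37A3 from 41.9 to 21.8 FPKM, while Ugt37A2 stands at 55.2 and 49.9 FPKM.

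Family 35 came second by level, with 66.6 FPKM under the wildtype label and 62.0 FPKM under the mutant label over 6 genes, none of them called (deposited Cuffdiff table; 2 of its 3 tested genes had an unadjusted p under 0.05). Ugt35A1, the second most abundant Ugt gene under the wildtype label, had 54.5 and 44.1 FPKM (q = 0.173, the authors' deposited table). Ugt35B1, which is known from the antenna of adult flies, had 9.87 and 9.35 FPKM, the closest values among the 3 tested genes of the family (q = 0.928, the authors' deposited table). The odorant receptor partner gene Orco, a marker of olfactory neurons, was at 0.239 FPKM and a listed 0 in the same whole-larva libraries.

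Ugt35C1 had the largest ratio of all tested Ugt genes without being called. This gene, earlier named Ugt86Dd, is known from work in fruit flies on resistance to nicotine. It had 1.26 FPKM under the wildtype label and 8.11 FPKM under the mutant label, a 6.43-fold difference (log2 ratio 2.01), with an unadjusted p of 0.0113 and a q-value of 0.0728 in the authors' deposited Cuffdiff table. The wildtype-labelled value was the lowest of any tested Ugt gene. Ugt35E1 (0.342 and 0.459 FPKM), Ugt35E2 (0.658 FPKM and a listed 0) and Ugt35D1 (listed at 0 in both groups) were not tested.

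Most genes of families 35, 302, 303 and 304 lie side by side on arm 3R. A cluster of 9 Ugt genes covers 26.9 kb, from 11151026 to 11177910, and Ugt35C1 lies 22.7 kb before its first gene, Ugt302K1. Levels within the cluster ranged from a listed 0 for Ugt302E1 to the values of Ugt35A1, although all but 1 of the gaps between neighbours are 776 nucleotides or shorter. The exception is the 4678 nucleotides between Ugt302C1 and Ugt35E1. Summed, the cluster had 109 FPKM under the wildtype label and 111 FPKM under the mutant label, and 0 of its 5 tested genes were called in the deposited Cuffdiff table (2 had an unadjusted p under 0.05).

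Ugt302C1 was the gene of highest level in its family, with 34.5 FPKM and 42.8 FPKM (1.24-fold higher in value, unadjusted p 0.0326 and q = 0.148, the authors' deposited table). Ugt302K1, the first gene of the cluster, had 0.545 FPKM under the wildtype label and a listed 0 under the mutant label. At the other end of the cluster, Ugt303A1 had 6.36 and 10.7 FPKM (1.68-fold, q = 0.224, the authors' deposited table). Ugt304A1, 120 nucleotides from it, had 2.58 and 3.82 FPKM (q = 0.593, the authors' deposited table). The other genes of family 303 form a separate run of 3 on arm 3R. Of these, Ugt303B3 had 2.97 and 5.18 FPKM (q = 0.455, the authors' deposited table), while Ugt303B1 (1.39 and 1.21 FPKM) and Ugt303B2 (1.79 and 1.23 FPKM) were not tested. Within the 9-gene cluster, 4 genes had the higher value under the mutant label, 4 the lower one and 1 neither.

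**Figure D3:**
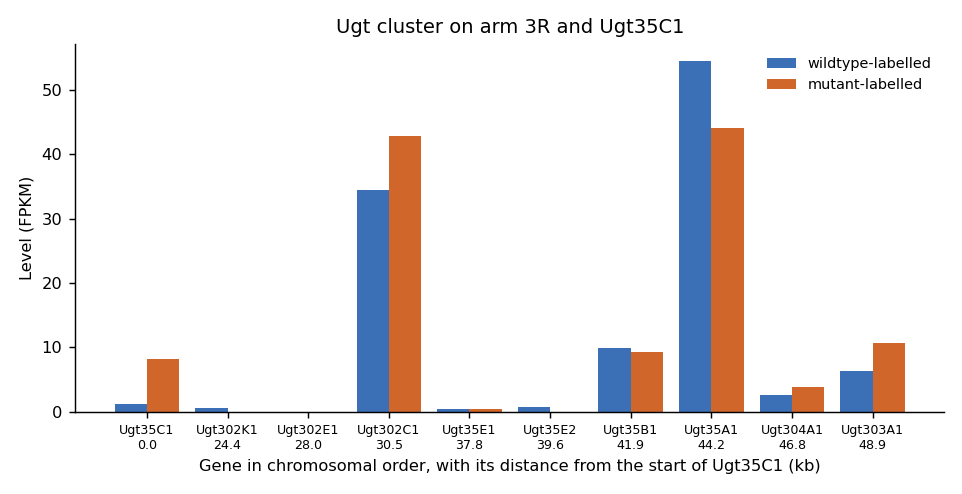
Level in FPKM of Ugt35C1 and of the 9 clustered Ugt genes of arm 3R in chromosomal order, with the distance of each start from that of Ugt35C1 in kb under its name; blue bars are wildtype-labelled and orange bars mutant-labelled larvae, 1 authors' value each. Ugt35A1 (54.5 and 44.1 FPKM) and Ugt302C1 (34.5 and 42.8 FPKM) stand out, with opposite order of the groups, among neighbours at 0 to 10.7 FPKM.

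The 4 families 301, 305, 316 and 317, with 1 gene each, were all tested and none was called. Ugt316A1 had 10.93 FPKM under the wildtype label and 10.92 FPKM under the mutant label, the smallest difference of any tested Ugt gene (q = 0.991, the authors' deposited table). Ugt305A1 had 8.49 and 8.59 FPKM (q = 0.978) and Ugt301D1 10.1 and 11.1 FPKM (q = 0.813), both from the authors' deposited Cuffdiff table. Ugt317A1 had 8.62 and 6.40 FPKM, which is 1.35-fold lower in value, with a q-value of 0.452 in that deposited Cuffdiff table.

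Ugt49B1 had 21.4 and 17.0 FPKM (1.26-fold lower in value, q = 0.402, the authors' deposited table). The row of Ugt49B1 shares its coordinates with that of Gyg, the glycogenin gene, and CG44245, which went from 207 to 160 FPKM and was called lower. In Ensembl release 115, exons of Ugt49B1 overlap those of CG44245 on the opposite strand by 90 nucleotides. Whether counting used strand is not given in the labels, so fragments from the overlap could count for either gene. Its neighbour Ugt49C1 had 0.755 and 2.94 FPKM, and Ugt49B2 a listed 0 and 0.374 FPKM. Neither was tested.

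Family 36 was low throughout. Ugt36A1, earlier named Dorothy and known from blood cells and pericardial cells, had 1.69 and 1.71 FPKM. Ugt36D1 had 2.30 and 2.20 FPKM, Ugt36E1 2.66 and 3.38 FPKM, and Ugt36F1 a listed 0 and 0.576 FPKM. The 4 genes summed to 6.65 FPKM and 7.86 FPKM, and none was tested. Exons of Ugt36A1 and Ugt36E1 overlap those of CG15418 and CG17597 on the opposite strand by 400 and 48 nucleotides. CG15418 had 1.13 and 4.91 FPKM and was not tested, while CG17597 went from 108 to 74.7 FPKM and was called lower. Here too, fragments from the overlaps could count for either gene. Ugt50B3, from a family that is conserved across insects, was listed at 0 under the wildtype label and at 1.34 FPKM under the mutant label, and Ugt307A1 at 0 in both. The 18 untested Ugt genes had values of at most 3.38 FPKM, and 10 of them stayed below 1 FPKM in both groups.

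**Figure D4:**
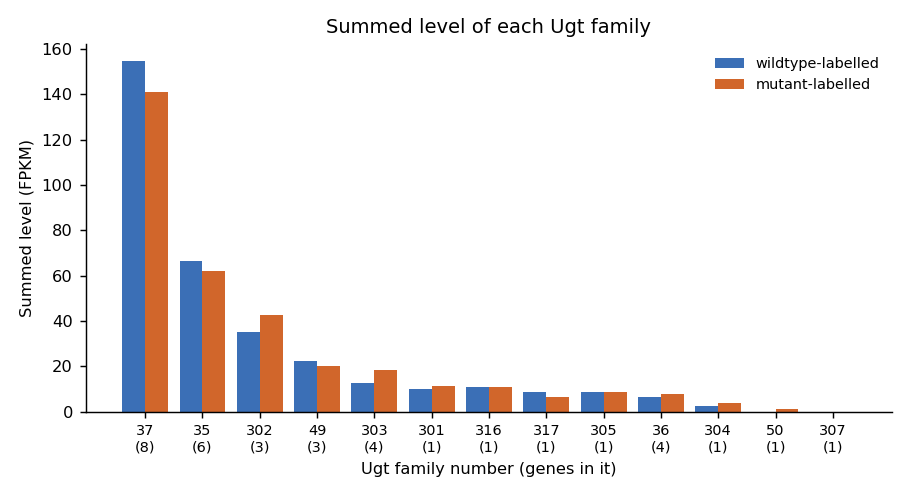
Summed level in FPKM of the genes of each of the 13 Ugt families, with the number of genes in parentheses; blue bars are wildtype-labelled and orange bars mutant-labelled larvae, each a sum of the authors' values without error bars. Family 37 leads with 154 and 141 FPKM, followed by family 35 with 66.6 and 62.0 FPKM and family 302 with 35.03 and 42.8 FPKM.

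A few genes made up most of the family's transcripts. The 5 genes of highest mean level, Ugt37A2, Ugt35A1, Ugt302C1, Ugt37D1 and Ugt37A3, held 66.5% of the Ugt total under the wildtype label and 56.0% under the mutant label. These are also the 5 genes at 20 FPKM or more in both groups, and 4 of the 5 had the lower value under the mutant label. The median mean level of the 17 tested members, 10.7 FPKM, was close to that of all tested genes, 11.2 FPKM. By arm, 17 of the 35 genes lie on 3R, 11 on 2L, 5 on 2R and 2 on 3L, and 0 lie on the X or on chromosome 4.

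At an unadjusted p under 0.05 in the authors' deposited Cuffdiff table, 7 of the 17 tested Ugt genes differed, 4 with the higher and 3 with the lower value in mutant-labelled larvae. That is 41.2% of them, beside 25.8% of all tested genes and 20.3% of those in the same range of level. Besides the called pair these were Ugt35A1, Ugt35C1, Ugt302C1, Ugt37C1 and Ugt37D1, and the adjustment over all tested genes left them above the threshold. Whether these shares differ was not tested.

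**Figure D5:**
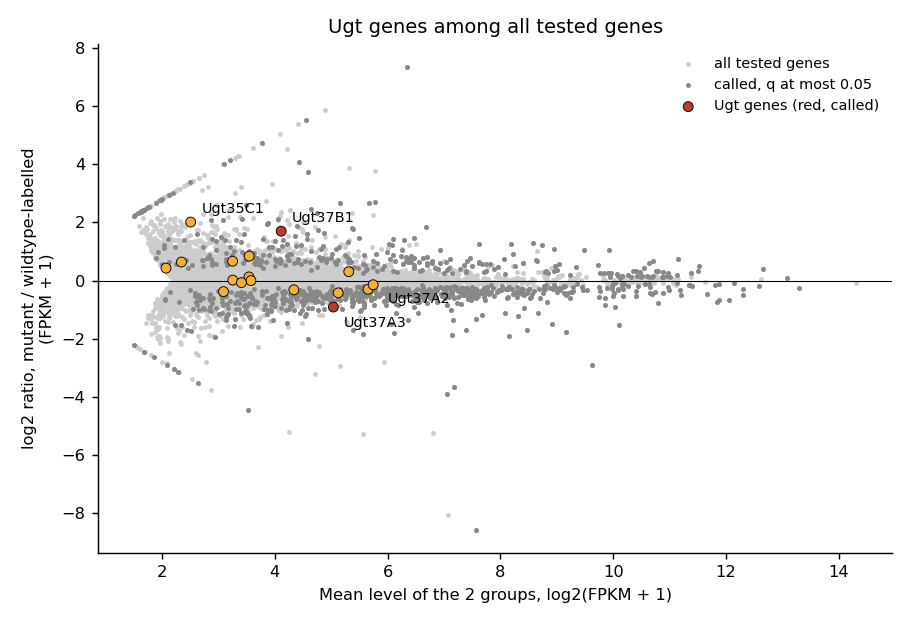
The log2 ratio of mutant-labelled to wildtype-labelled FPKM, with a pseudocount of 1, against the mean level as log2(FPKM + 1) for all 7058 genes the authors tested (pale grey, or dark grey where called) and the 17 tested Ugt genes (yellow, red where called). Ugt37B1 at 1.70 and Ugt37A3 at -0.91 are the called members, and Ugt35C1 at 2.01 has the largest ratio.

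A broad list of genes around the supply of UDP-sugars, the donors of these enzymes, was lower in part. The list is not limited to genes that make UDP-glucose, and the amounts of UDP-sugars were not measured. Of 13 tested genes on this list, 4 were called lower and 0 higher in the authors' deposited table. That is 30.8% called lower beside 8.73% of all tested genes, and the median log2 ratio was -0.22 beside -0.03. The list was chosen with earlier results of these data known, and whether these shares differ was not tested. Galk, the galactokinase gene, fell 2.84-fold (97.6 to 34.3 FPKM), and Galt, the galactose-1-phosphate uridylyltransferase gene, 1.47-fold (44.4 to 30.2 FPKM). The phosphoglucomutase gene Pgm1 fell 1.29-fold (130 to 101 FPKM). The gene sgl, whose enzyme oxidises UDP-glucose to UDP-glucuronate, fell 1.59-fold (26.6 to 16.7 FPKM).

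UGP, which encodes the enzyme that makes UDP-glucose itself, was not called at 37.4 and 37.6 FPKM (q = 0.976, the authors' deposited table). The values of mmy, the UDP-N-acetylglucosamine pyrophosphorylase gene, were 71.7 and 61.3 FPKM and those of Pgm2a 30.4 and 30.4 FPKM, again without a call. In the same whole larvae 9 of 11 tested fat body markers were called lower and 0 higher. Over all tested genes these shares were 8.73% lower and 4.32% higher, but these were not matched for level. At high levels small differences were called, such as that of the midgut marker Jon65Aiv at 1.07-fold (4657 and 4347 FPKM). This list too was chosen with earlier results of these data known. The lower fat body markers were the larval serum protein genes Lsp1alpha, Lsp1beta, Lsp1gamma and Lsp2, and Fbp1, Fbp2, Apoltp, Desat1 and Lip4. Their falls ranged from 1.14-fold (Lsp1gamma) to 2.73-fold (the row of Lip4). The rows of Fbp2, Desat1 and Lip4 each hold a further gene. The 2 tested markers without a call were apolpp (297 and 286 FPKM) and Mtp (32.7 and 33.3 FPKM). The 12 markers' summed share of all FPKM went from 4.28% to 3.46%. Most of that sum came from Lsp1alpha, Lsp1beta, Lsp1gamma, Lsp2 and Fbp2, so the share mainly shows the level of these genes. The part of fat body in the differences of the sugar supply genes and of the Ugt genes was not tested. In bulk RNA, fewer cells of a type, less RNA per cell and lower expression of the marker genes alone cannot be told apart. The rows of Galk, Galt, Pgm1, sgl and UGP share their loci with other rows.

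On a broad list of regulators of xenobiotic and stress responses, the deposited Cuffdiff table called 0 of 6 tested genes, with 0 at an unadjusted p under 0.05 as well. The 6 tested genes were Hr96, cnc, maf-S, ERR, Hnf4 and gce, and not all of them are specific to foreign compounds. With 13.0% of all tested genes called, a count of 0 among 6 genes is near the background. The values of cnc, the transcription factor gene of the oxidative and xenobiotic response, were 26.8 and 26.0 FPKM, and those of its partner maf-S 34.7 and 29.1 FPKM. Hnf4, a nuclear receptor gene, had 9.25 and 8.63 FPKM.

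Of the ABC pumps, which export foreign compounds and conjugates from cells, 1 of 7 tested genes was called higher and 0 lower in the deposited table, beside 4.32% and 8.73% of all tested genes. Mdr49 rose 1.63-fold, from 16.9 to 27.5 FPKM (q = 0.000889, the authors' deposited table), in a row that shares its locus. The uncalled pumps of highest level were MRP (28.3 and 31.8 FPKM), Mdr50 (22.9 and 23.9 FPKM) and Mrp5 (22.7 and 20.3 FPKM). The only sulfotransferase gene tested of 4, St3, was not called at 4.18 and 8.38 FPKM (q = 0.222, the authors' deposited table). Of the sugar-transferring enzymes outside the family, 0 of 3 tested genes were called (Cuffdiff, authors' deposited table; 0 also at an unadjusted p under 0.05), with Uggt, the glucosyltransferase gene of glycoprotein folding, at 13.8 and 12.7 FPKM, egh at 14.0 and 11.1 FPKM and alpha4GT1 at 5.53 and 3.70 FPKM.

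Markers of the other tissues in which Ugt genes act are given beside the 4.32% higher and 8.73% lower calls over all tested genes, and counts this small are not read as a pattern of tissues. Malpighian tubule markers were called higher in 1 and lower in 0 of 11 tested genes, with the potassium channel gene Irk2 1.63-fold higher (12.4 to 20.1 FPKM) and the row of Uro, the urate oxidase gene, and CG7164 at 123 and 139 FPKM without a call. Midgut markers were called higher in 2 and lower in 2 of 10 tested genes. The higher ones were the serine protease gene Jon99Ciii (1298 to 2051 FPKM) and Peritrophin-15a (829 to 1004 FPKM). The lower ones, the serine protease genes Jon65Aiii (2884 to 2517 FPKM) and Jon65Aiv (4657 to 4347 FPKM), differed by only 1.15-fold and 1.07-fold. Oenocyte markers were called higher in 1 (the fatty acid synthase gene FASN3) and lower in 1 (the cytochrome P450 reductase gene Cpr) of 6. Of the 11 genes on the chemosensory list, 3 were tested and 6 were listed at 0 in at least 1 group. The odorant-binding protein gene Obp99b was the 1 called higher, by only 1.05-fold (8453 to 8906 FPKM). With Orco at 0.239 FPKM and a listed 0, Obp99b is not read as a marker of olfactory cells here. The part of these tissues in the Ugt values was not tested.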

How the data were processed

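Levels came from 1 deposited Cuffdiff table of 16198 loci, without values per library. FPKM values were made by the authors, 1 per group over its 2 libraries. TopHat2, Cufflinks and Cuffdiff are named per the submitters' processing notes, and versions, settings, build and annotation are not given in the sources used here. Its deposited log2 fold change, Cuffdiff score and p-value and q-value are the authors', and the q-value matched a recomputed Benjamini-Hochberg adjustment. Depth is unknown, because no whole-read steps were found among low FPKM values.

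Of 30529 accessions, 30273 matched Release 6 symbols, and all 35 member rows overlapped the Release 6 gene (34 with the same start). Positions are those of the table with a 1-based start. Exons, strands and overlaps came from Ensembl release 115. Ratios were log2 with a pseudocount of 1 FPKM. The Benjamini-Hochberg step was tested on simulated data. Members and lists were chosen with earlier results of these data known. All members are named. Of the other lists, called genes are named and, outside the tissue markers, up to 3 uncalled genes of highest mean level. Tissue markers without a call are named only in part. On the sugar supply list, 1 gene is not reported here, Csat and Ugalt name 1 gene, and nagk and, among regulators, Ahr were not matched. Promoter and protein sequences were not used here. Clusters are genes whose starts lie within 20 kb of the next. Computation used scipy 1.17.1 and pandas 2.3.3 with numpy 2.4.6 under Python 3.11.15, and figures matplotlib 3.10.9.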

Additional observations from a re-analysis of the deposited data

How the results depend on the processing

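The counts of 1 higher and 1 lower Ugt gene held at a q-value threshold of 0.01, without rows that share a locus, and among genes at 1 FPKM or more in a group. At a threshold of 0.1 they became 3 higher and 2 lower, and requiring also a log2 ratio of 1 or more in size they were 1 higher and 0 lower. The lower gene, Ugt37A3, has a ratio just under that size. The median log2 ratio of 0.015 was 0.070 without shared loci, 0.0165 with a pseudocount of 0.1, 0 over all 35 members and 0.0498 when centred on all tested genes. The ratio of summed levels, 0.989, was 0.996 without shared loci, 0.991 among genes at 1 FPKM or more and 1.03 as a share of the FPKM total, which turns its direction. Among single tested genes only Ugt316A1 changed sign, to 0.0334 when centred. No paired analysis was possible because the table holds 1 value per group and none per library, and for that reason leaving out single libraries was not run either. Untested genes and the unknown depth limit what can be said of the 18 low members.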

Other observations

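Within 25 kb of any of the 35 Ugt genes lay 147 rows of other genes, of which 68 were tested, and 3 of these were called higher and 10 lower. That is 19.1% called beside 13.0% of all tested genes, with 4.41% called higher beside 4.32% and 14.7% lower beside 8.73%, and the difference was not tested. The higher rows were Irk2 near the run of family 303 (12.4 to 20.1 FPKM), and near the run of family 36 the row of CG17325 and CG42305 (181 to 268 FPKM) and that of CG10600 and CG31752 (3.99 to 7.11 FPKM). The lower rows near genes of family 37 were the malic enzyme gene Men (334 to 222 FPKM), the myosin heavy chain gene Mhc (500.4 to 326 FPKM), Cyt-b5-r (114.6 to 84.2 FPKM) and spir (5.16 to 2.67 FPKM). The other lower rows were CG17597 (108 to 74.7 FPKM), tud (49.7 to 43.3 FPKM), the row of Gyg and CG44245 (207 to 160 FPKM), wit (7.92 to 4.56 FPKM), CG14989 (28.2 to 17.2 FPKM) and the row of Caper and milt (38.1 to 31.0 FPKM). These rows are named after their values were seen.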
